A study of Mus musculus with 4 samples.

Results

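C1q macrophages are kidney macrophages that carry high levels of the transcripts of complement component C1q, and they were taken here from whole-kidney cell suspensions of mice with anti-GBM nephritis. A cell was counted as a C1q macrophage when it had 200 or more genes, 10 or more UMIs of C1qa, C1qb and C1qc together, under 3 UMIs of the cycling genes Mki67 and Top2a, and under 0.15% of its UMIs from the proximal tubule transporter Slc34a1. The cells were thus chosen by measured values of these genes. The gate took 667 of 15777 cells with 200 or more genes (16003 cells were deposited). All mice were 9-week-old C57Bl/6 males of the genotype Pax2.rtTA;TetO.Cre;R26.Confetti, and all of them, the vehicle group included, received anti-GBM serum (PTX-001) on day 0. From day 1 the drug groups were given 15 mg/kg of panobinostat, 10 mg/kg of givinostat or 60 mg/kg of ruxolitinib, and the vehicle group distilled water, and kidneys were taken on day 7. Each group had 2 animals and gave 1 10x 3′ library, and the labels do not say whether the animals of a group were pooled. The confetti reporter is driven by Pax2, a gene of the nephron lineage, so the genotype does not mark macrophages. In the matrix, the cells taken as vehicle are those of the only library whose name holds no drug, a name that the labels do not use.

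C1q is the recognition molecule of the classical complement pathway. Its 3 chains are made chiefly by macrophages, which also clear antibody-coated and dying material, present antigen and release chemokines. In anti-GBM nephritis antibodies bind the glomerular basement membrane, and monocytes that enter the kidney can become macrophages beside those that live there. Panobinostat and givinostat inhibit histone deacetylases, and ruxolitinib inhibits JAK1 and JAK2, the kinases that carry interferon receptor signals to STAT proteins.

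With 1 library per group no difference could be tested. The intervals given throughout are 95% exact intervals that cover counting error only. They leave out the spread between animals and the clustering of a gene's UMIs in few cells. Levels are CPM, UMIs summed over the gated cells of a library and scaled to 1000000 summed UMIs, with Poisson intervals in the plots; ratios are a drug library over the vehicle library with conditional binomial intervals, and the same vehicle library stands under all 3 drugs. Log2 ratios were taken after adding 5 CPM to both levels. A gene is called past 1.5-fold on that scale, which is a size and not a test. The doses of panobinostat and givinostat differ, so their values stand side by side without a comparison.

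The libraries held 127, 183, 190 and 167 C1q macrophages under panobinostat, givinostat, ruxolitinib and vehicle. Their share of all cells was 2.89% under panobinostat (2.41 to 3.43), 5.27% under givinostat (4.55 to 6.07), 4.78% under ruxolitinib (4.13 to 5.48) and 4.25% under vehicle (3.64 to 4.93, Clopper-Pearson). The panobinostat share was the lowest, at 0.680 times the vehicle share (0.535 to 0.861), against 1.24 times for givinostat (1.00 to 1.54) and 1.12 times for ruxolitinib (0.908 to 1.39). As a share of cells with a UMI of the pan-leukocyte gene Ptprc, C1q macrophages made up 7.83%, 9.10% and 11.2% in the panobinostat, givinostat and ruxolitinib libraries and 9.50% in the vehicle library. On that base the ratios were 0.824 (0.642 to 1.06), 0.957 (0.769 to 1.19) and 1.18 (0.946 to 1.46), and each interval includes 1. The panobinostat library also held the most cells in the proximal tubule gate, 2195, against 1015 under givinostat, 1481 under ruxolitinib and 1638 under vehicle. The limit on Slc34a1 removed 33 panobinostat, 18 givinostat, 16 ruxolitinib and 11 vehicle cells that had passed the C1q threshold. Without that limit the panobinostat ratio of shares was 0.804 (0.645 to 1.00), an interval that reaches 1.

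Depth differed between the libraries. The median C1q macrophage had 5194 UMIs under panobinostat, 9122 under givinostat, 7078 under ruxolitinib and 6707 under vehicle, and the lowest total of any cell in these libraries was 2920, 5272, 3817 and 3723 UMIs. The median mitochondrial share was 5.22%, 4.51%, 5.10% and 5.14%. For values per cell, each cell was therefore thinned to 2900 UMIs, which left out no C1q macrophage. Across libraries 20 cell barcodes were shared, and 1 gated cell carried such a barcode.

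Transcripts of other cell types were present in the gate. Of the C1q macrophages, 40 panobinostat, 62 givinostat, 50 ruxolitinib and 48 vehicle cells had 5 or more UMIs of the marker genes of another class (10 or more for erythroid genes), or 1% or more of their UMIs from proximal tubule markers. That is 31.5%, 33.9%, 26.3% and 28.7% of the gate. Summed levels of all 10 proximal tubule markers, none of them at 0, were 6188 CPM under panobinostat, 2486 under givinostat, 3235 under ruxolitinib and 3998 under vehicle in the whole gate, and 1601, 1281, 1468 and 1216 CPM without those cells. Summed neutrophil markers were 20.8, 404, 162 and 922 CPM in the whole gate and 28.3, 49.9, 57.0 and 28.3 CPM without those cells. The 5 endothelial markers summed to 140, 512, 61.8 and 115 CPM in the whole gate and to 13.1, 19.6, 9.83 and 11.1 CPM without those cells, and the 6 T cell markers to 132, 203, 147 and 90.6 CPM in the whole gate and to 15.2, 11.6, 10.8 and 24.6 CPM without them. The remaining 87, 121, 140 and 119 cells, 467 in all, are called marker-free below, and they were chosen after the values had been seen. Their shares of all cells were 1.98%, 3.49%, 3.52% and 3.03%, with ratios to vehicle of 0.654 (0.490 to 0.869), 1.15 (0.886 to 1.5) and 1.16 (0.904 to 1.5).

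**Figure D1:**
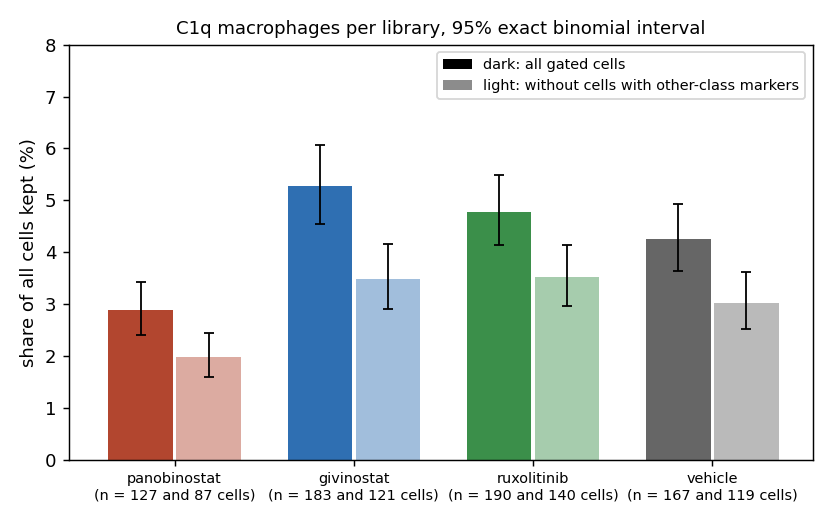
C1q macrophages as a share (%) of all cells with 200 or more genes in each library, with 95% exact binomial intervals that cover counting error only; dark bars show the whole gate and light bars the marker-free cells. The panobinostat bars, at 2.89% and 1.98%, are the lowest of the 4 libraries.

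The gate genes lie side by side on chromosome 4 of GRCm38, all on the minus strand: C1qb at chr4:136880129-136886187, C1qc at chr4:136889804-136893065 and C1qa at chr4:136895917-136898803. Their levels chose the cells and are given as a description. C1qa stood at 2585 CPM under panobinostat, 2683 under givinostat, 2685 under ruxolitinib and 2796 under vehicle. C1qb stood at 3152, 3039, 3193 and 3299 CPM, and C1qc at 1668, 1935, 1864 and 1860 CPM. In thinned cells 92.1%, 92.3%, 96.3% and 94.0% of C1q macrophages had a C1qa UMI, against 0.410%, 0.690%, 0.540% and 0.244% of thinned proximal tubule cells of the same libraries. Those tubule cells were chosen to have 2 or fewer C1q UMIs and to lack Ptprc, so their low share was set by selection. It cannot give the level that free C1q RNA reaches. The gate cut through a sparse range: 42 cells had 10 to 14 C1q UMIs and 40 other cells that met the remaining limits had 5 to 9. Just inside the threshold Ms4a7 was at 21.6 CPM, Apoe at 2426 and the monocyte gene Plac8 at 603, and just outside it at 41.2, 2389 and 329 CPM. The 398 cells with 60 or more C1q UMIs had 350 CPM of Ms4a7, 13208 of Apoe and 147 of Plac8.

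The other markers of the label were present in all libraries. Ms4a7, a four-span membrane protein of macrophages, was at 159 CPM under panobinostat, 308 under givinostat, 232 under ruxolitinib and 255 under vehicle. In classical monocytes, gated on Ly6c2 and Lyz2 and limited to 2 or fewer C1q UMIs, the level of Ms4a7 was at most 20.7 CPM in any library. Apoe, the lipid carrier apolipoprotein E, was at 5358, 11278, 9271 and 10817 CPM in C1q macrophages and at 1436, 1611, 1280 and 1495 CPM in the monocytes. The receptor for macrophage colony-stimulating factor, Csf1r, was at 508, 606, 673 and 554 CPM, and Adgre1, which encodes the F4/80 antigen, at 136, 236, 239 and 190 CPM. Many cells also carried Ccr2, the receptor that draws monocytes out of blood, at 714, 612, 680 and 575 CPM, beside the fractalkine receptor Cx3cr1 at 299, 324, 368 and 262 CPM. Of 14 genes taken to mark resident macrophages, 6 reached 50 CPM in the whole gate in each comparison, while Folr2 and Cd163 were near 0. Cd81, a member of that list, was at 518, 521, 576 and 504 CPM, beside 262 to 273 CPM in proximal tubule cells.

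In marker-free cells, 26 genes stood at least 3-fold above classical monocytes, Cd209a or Mgl2 dendritic cells and proximal tubule cells in every library, a description since the gate rests on the same cells. Beside the gate genes they included the collagenase Mmp13, platelet factor 4 (Pf4), the monocyte chemokine Ccl12, the anaphylatoxin receptor C3ar1, the scavenger receptor Stab1, the efferocytosis receptor Axl, the Fc receptor Fcgr4, and the chemokines Ccl3 and Cxcl2.

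C1q macrophages varied along the C1q level itself. Marker-free cells of each library were split into low, middle and high C1q share of UMIs, 157, 156 and 154 cells over all libraries, as a description since C1q chose the cells. From low to high, Apoe stood at 6058, 16930 and 21140 CPM, Ms4a7 at 137, 408 and 653, and Cx3cr1 at 268, 481 and 735. Genes of recently arrived monocytes ran the other way: Ccr2 stood at 1371, 776 and 552 CPM, Plac8 at 587, 57.3 and 15.8, the calcium-binding protein gene S100a4 at 641, 120 and 13.7, and Fn1 at 836, 112 and 28.5. Pf4 went with C1q, at 81.9, 172 and 374 CPM. The median cell had 7832, 5992 and 5340 UMIs in these sets, so depth ran with the split too, and its part in these levels was not tested.

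Among genes at 50 CPM or more in 1 of the compared libraries, 2.9% of 3142 were past 1.5-fold higher and 4.14% lower under panobinostat, 7.16% and 7.87% of 3266 under givinostat, and 3.85% and 4.13% of 3220 under ruxolitinib in the whole gate. Without that filter, 6.37% of 15025 genes were past 1.5-fold higher and 6.1% lower under panobinostat, 6.66% and 6.52% of 15403 under givinostat, and 4.8% and 4.98% of 15262 under ruxolitinib in the whole gate. In marker-free cells the shares were 11.1% and 11.6% of 12762 genes under panobinostat, 10.3% and 6.36% of 13344 under givinostat, and 10.2% and 6.13% of 13278 under ruxolitinib. Counts of listed genes below cover every member of a list found among the genes of the matrix, without that filter, and are read against these shares. The median log2 ratio over all genes lay between -0.03 and 0.08 in the 3 comparisons and both cell sets. The macrophage identity list of 16 genes had 0 genes past 1.5-fold higher and 1 lower under panobinostat, 0 and 0 under givinostat, and 0 and 0 under ruxolitinib in marker-free cells. In the whole gate the counts were 0 and 3, 1 and 0, and 0 and 0.

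**Figure D2:**
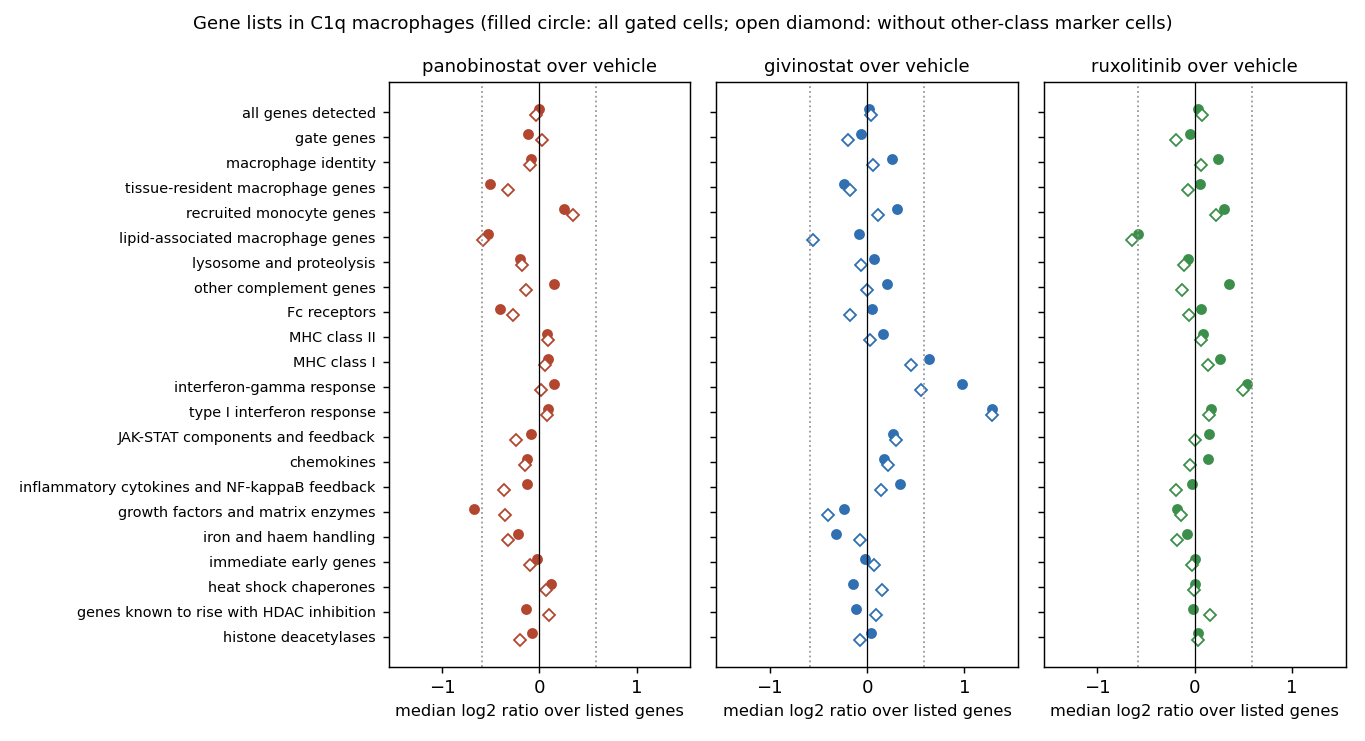
Median log2 ratio of each gene list, each drug library over the vehicle library, with all detected genes in the top row; filled circles show the whole gate, open diamonds the marker-free cells, and dotted lines mark 1.5-fold. The type I interferon list lies at 1.28 under givinostat in both cell sets, against 0.09 and 0.08 under panobinostat and 0.17 and 0.15 under ruxolitinib.

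Type I interferon genes were higher in C1q macrophages of the givinostat library. These genes are switched on by signals from interferon receptors, through a promoter element with repeated GAAA blocks. The promoters of 4 of the listed genes are shown because the members were higher together and the element can be read in them. Each is the 250 bases before the start of the gene in RefSeq (GRCm38.p6), 5′ to 3′ on the gene's strand, with matches to the motif GAAA, any 2 bases, GAAA in capitals, on either strand (TTTC, any 2 bases, TTTC where the match is on the other strand). Isg15 is at chr4:156200819-156201068 on the minus strand, Ifit3 at chr19:34583279-34583528 on the plus strand, Rsad2 at chr12:26456453-26456702 on the minus strand and Oas1a at chr5:120907526-120907775 on the minus strand.
Isg15: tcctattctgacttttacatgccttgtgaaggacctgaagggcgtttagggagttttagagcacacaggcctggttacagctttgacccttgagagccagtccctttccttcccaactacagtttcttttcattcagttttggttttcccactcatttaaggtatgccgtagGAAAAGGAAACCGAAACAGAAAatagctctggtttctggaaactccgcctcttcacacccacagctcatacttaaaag
Ifit3: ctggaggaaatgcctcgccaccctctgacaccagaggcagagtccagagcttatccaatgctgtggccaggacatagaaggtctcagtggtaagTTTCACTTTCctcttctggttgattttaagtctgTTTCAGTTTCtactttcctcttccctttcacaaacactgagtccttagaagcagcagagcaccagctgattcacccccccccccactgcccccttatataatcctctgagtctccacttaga
Rsad2: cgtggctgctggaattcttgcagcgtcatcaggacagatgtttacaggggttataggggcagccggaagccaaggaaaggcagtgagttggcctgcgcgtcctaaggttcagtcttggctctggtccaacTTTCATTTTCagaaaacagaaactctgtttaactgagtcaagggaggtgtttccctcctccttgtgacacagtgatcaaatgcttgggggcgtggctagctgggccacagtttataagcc
Oas1a: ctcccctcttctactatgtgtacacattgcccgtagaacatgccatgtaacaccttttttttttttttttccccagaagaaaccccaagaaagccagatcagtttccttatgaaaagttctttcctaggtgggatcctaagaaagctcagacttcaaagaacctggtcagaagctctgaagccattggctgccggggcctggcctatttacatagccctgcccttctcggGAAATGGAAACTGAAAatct

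In Isg15 the capitals hold 3 overlapping matches on the gene's strand, the first of them 78 to 69 bases before the start. Ifit3 held 2 matches on the other strand, at 156 to 147 and 122 to 113 bases before the start, and Rsad2 held 1, at 120 to 111. Oas1a held 2 overlapping matches on its own strand, from 20 to 5 bases before the start. Among 300-base windows around all starts in the table, 1131 of 32851 (3.44%) held the motif, against 6 of the 10 type I interferon genes with an entry (60.0%), 8 of 11 interferon-gamma genes (72.7%) and 1 of 10 lipid-associated genes (10.0%). A match describes the letters and does not show binding.

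All 15 genes of the type I interferon list were past 1.5-fold higher under givinostat in the whole gate, with a median log2 ratio of 1.28. In marker-free cells 14 of 15 were, with a median of 1.28. Endothelial markers were past 1.5-fold higher under givinostat for 5 of 5 in the whole gate and 1 of 5 in marker-free cells. Marker-free cells were chosen for few UMIs of such markers, so that fall was set by the choice. The part of endothelial RNA in the values of the interferon list was not tested. Under panobinostat 1 was past 1.5-fold higher and 2 lower in the whole gate (median 0.09), and 0 in either direction in marker-free cells (0.08). Under ruxolitinib 2 were higher and 0 lower (0.17), and 0 higher and 1 lower in marker-free cells (0.15).

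Isg15, which encodes a ubiquitin-like protein, had 34 UMIs under panobinostat, 202 under givinostat, 44 under ruxolitinib and 46 under vehicle in marker-free cells, or 74.0, 180, 43.2 and 56.6 CPM. Its givinostat level was 3.18 times the vehicle level (2.30 to 4.48), while the panobinostat ratio of 1.31 (0.814 to 2.08) and the ruxolitinib ratio of 0.764 (0.493 to 1.18) had intervals that include 1. A few cells held much of it: the 5 givinostat cells richest in Isg15 carried 58.4% of its UMIs, and without the top 5 cells of each library the log2 ratio was 0.85. Rsad2, the antiviral enzyme viperin, was at 17.4, 92.7, 29.5 and 25.8 CPM, with a givinostat ratio of 3.59 (2.23 to 6.04) and a log2 ratio of 1.70 without the top 5 cells. Ifit3, an antiviral RNA-response protein, was at 39.2, 87.3, 19.7 and 24.6 CPM, with a givinostat ratio of 3.55 (2.18 to 6.06) and 1.66 on the log2 scale without the top 5 cells. For each of these genes the givinostat level was the highest of the 4 libraries, and its interval lay above that of vehicle.

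The related genes Ifit1 and Ifit2 were at 52.6 and 103 CPM under givinostat, against 13.5 and 34.5 CPM under vehicle, with ratios of 3.88 (2.02 to 8.20) and 3.0 (1.97 to 4.71). Oas1a, a sensor that activates RNase L, was at 26.1, 57.0, 25.6 and 17.2 CPM under panobinostat, givinostat, ruxolitinib and vehicle, and the givinostat ratio was 3.31 (1.84 to 6.39). Irf7, the transcription factor that amplifies type I interferon production, was at 93.6, 187, 67.8 and 88.6 CPM, a givinostat ratio of 2.11 (1.61 to 2.80). Oasl2 was at 71.9, 143, 78.6 and 61.5 CPM, a givinostat ratio of 2.33 (1.69 to 3.27). Ifi204, a cytosolic DNA sensor of the p200 family, was at 185, 379, 262 and 197 CPM, a givinostat ratio of 1.92 (1.6 to 2.32). The exception in marker-free cells was Ifi27l2a, at 1143, 1599, 1001 and 1135 CPM, a givinostat ratio of 1.41 (1.30 to 1.53).

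**Figure D3:**
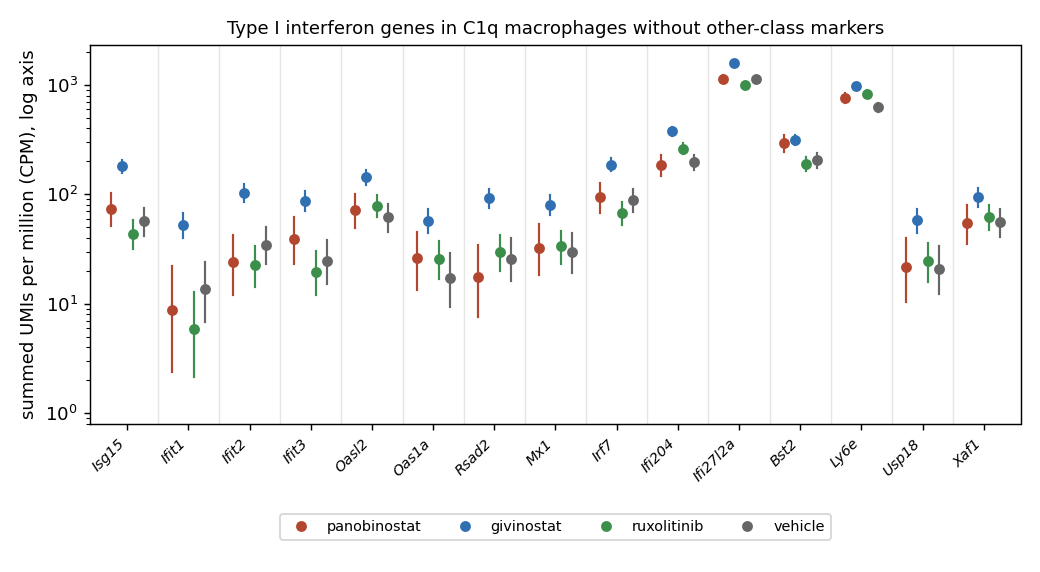
Levels of the 15 type I interferon genes in marker-free C1q macrophages (CPM, log axis), 1 point per library with its 95% exact Poisson interval. The givinostat point is the highest of the 4 for every gene; Isg15, for example, is at 180 CPM, against 56.6 CPM under vehicle.

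For the sum of the 15 genes, the higher level was spread over cells and not held by the top cells alone. Abundant members such as Ifi27l2a, which was short of 1.5-fold, weigh most in that sum, so it does not show this for each gene. Per 2900 UMIs the median marker-free cell had 7 UMIs of the 15 genes under panobinostat, 11 under givinostat, 7 under ruxolitinib and 8 under vehicle, and the lower quartiles were 4, 6, 4 and 4. Upper quartiles were 11, 17, 10 and 12 UMIs, and the highest cell had 22, 73, 29 and 35. An Isg15 UMI was found in 11.5%, 19.0%, 8.57% and 16.8% of thinned cells, and an Rsad2 UMI in 5.75%, 17.4%, 6.43% and 9.24%. In the whole gate the Isg15 shares were 9.45%, 21.9%, 11.1% and 15.0%, beside 0.228%, 0.493%, 0.338% and 0.427% of thinned proximal tubule cells. The share of cells with Isg15 therefore differed less between givinostat and vehicle than its summed level did.

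**Figure D4:**
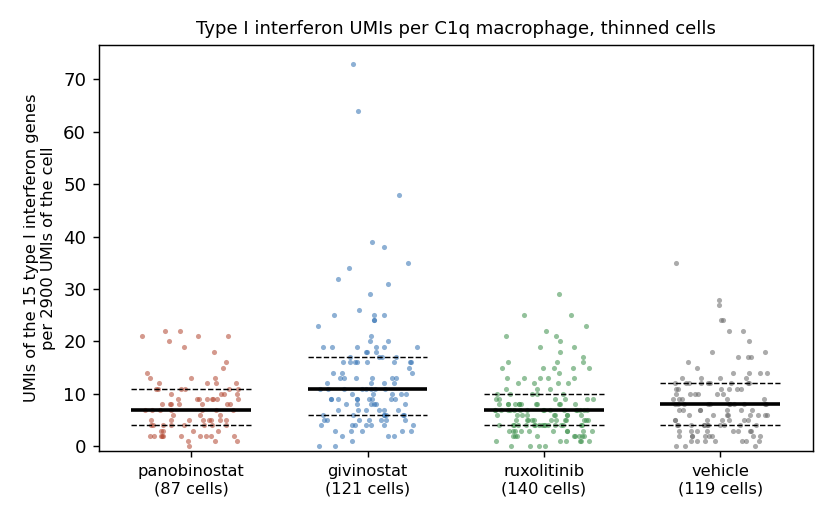
UMIs of the 15 type I interferon genes per marker-free C1q macrophage after thinning each cell to 2900 UMIs; each point is a cell, thick lines are medians (7, 11, 7 and 8) and dashed lines quartiles. Both quartiles and the median are highest under givinostat, the upper quartile at 17 UMIs against 12 under vehicle.

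Cells of other myeloid gates had their own values for the same genes, against the vehicle cells of that gate. In classical monocytes 5 of the 15 genes were past 1.5-fold higher under givinostat, with a median log2 ratio of 0.29, where 14.7% of all genes were; the vehicle library held 43 such cells. In dendritic cells gated on Cd209a and Mgl2, 9 of 15 were higher, with a median of 0.67, where 9.3% of all genes were. Isg15 was at 114 CPM in monocytes under givinostat and 137 CPM under vehicle. The difference between these gates and C1q macrophages was not tested.

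Genes that respond to interferon-gamma were past 1.5-fold higher for 6 of 13 under givinostat and 4 of 13 under ruxolitinib in marker-free cells (medians 0.55 and 0.50), and 11 and 6 of 13 in the whole gate (0.98 and 0.54). Under panobinostat the numbers were 1 higher and 3 lower (median 0.01), and 3 and 3 in the whole gate (0.15). Irf1, an interferon-induced transcription factor, was at 61.0 CPM under panobinostat, 92.7 under givinostat, 98.3 under ruxolitinib and 61.5 under vehicle in marker-free cells, with a ruxolitinib ratio of 1.6 (1.13 to 2.29). Gbp7, a guanylate-binding GTPase, was at 50.1, 67.7, 76.6 and 43.1 CPM, with a ruxolitinib ratio of 1.78 (1.18 to 2.73). The chemokine Cxcl10 was at 43.6, 189, 18.7 and 43.1 CPM, a givinostat ratio of 4.39 (3.06 to 6.46) and a ruxolitinib ratio of 0.433 (0.234 to 0.779). Few cells held it: the top 5 carried 81.1% of its givinostat UMIs and 80% of its vehicle UMIs, the ruxolitinib log2 ratio was 0.02 without the top 5 cells of each library, and in the whole gate the ruxolitinib level of 86.9 CPM was above the vehicle level of 46.8 CPM.

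Of 10 MHC class I genes, 2 were past 1.5-fold higher under givinostat in marker-free cells (median 0.45) and 6 in the whole gate (0.64), against 1 and 1 under ruxolitinib and 2 and 0 under panobinostat. B2m, the light chain of class I molecules, was at 2246 CPM under panobinostat, 3517 under givinostat, 2611 under ruxolitinib and 2136 under vehicle in the whole gate, and 3301, 4215, 3276 and 2965 CPM in marker-free cells. H2-K1, a classical heavy chain, was at 985, 1698, 1128 and 1023 CPM in the whole gate and at 1252, 1838, 1331 and 1316 CPM in marker-free cells. H2-T23, a non-classical one, was at 259, 427, 320 and 230 CPM in the whole gate and at 357, 519, 402 and 304 CPM in marker-free cells. The marker-free givinostat ratios were 1.40 (1.30 to 1.51) for H2-K1, short of 1.5-fold, and 1.71 (1.47 to 1.99) for H2-T23. The endothelial and T cell markers given above were also higher in the whole givinostat gate, and their part in the whole-gate class I values was not tested. Of 11 genes of MHC class II presentation and co-stimulation, 0 were past 1.5-fold higher in marker-free cells under any drug, and 1 was lower under panobinostat. In the whole gate H2-Aa, a class II alpha chain, was at 8238, 8516, 8282 and 7619 CPM, and Cd74, the invariant chain, at 16775, 15590, 15078 and 16263 CPM, so the 4 libraries lay within 1.5-fold of each other.

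Of 14 JAK-STAT components and feedback genes, 1, 1 and 1 were past 1.5-fold higher under panobinostat, givinostat and ruxolitinib in marker-free cells and 1, 0 and 0 lower. Socs3, which STAT3 induces and which blocks JAK kinases, was at 417 CPM under panobinostat, 459 under givinostat, 424 under ruxolitinib and 440 under vehicle in the whole gate. Pim1, a kinase gene that STAT5 induces, was at 582, 824, 746 and 662 CPM. The ruxolitinib ratios were 0.963 (0.870 to 1.07) for Socs3 and 1.13 (1.04 to 1.22) for Pim1.

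Of 15 lipid-associated macrophage genes, 7, 7 and 8 were past 1.5-fold lower under panobinostat, givinostat and ruxolitinib in marker-free cells and 0 were higher, with medians of -0.58, -0.55 and -0.64. In the whole gate 6, 3 and 8 were lower and 1, 1 and 1 higher, with medians of -0.53, -0.09 and -0.59. This program is known from macrophages that take up lipid and debris. All 3 ratios of a gene share its vehicle level, so 1 high vehicle value lowers all of them. In cells thinned to 2900 UMIs, the median marker-free cell had 13, 11 and 12 UMIs of the 15 genes under panobinostat, givinostat and ruxolitinib. Under vehicle it had 14. The lower quartiles were 10, 8, 9 and 11 UMIs and the upper quartiles 17, 15, 16 and 18, with vehicle the highest in both. The highest cell had 72, 46, 81 and 133.

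Cd63, a tetraspanin of late endosomes, was at 213 CPM under panobinostat, 182 under givinostat, 184 under ruxolitinib and 452 under vehicle in marker-free cells. Its ratios were 0.472 (0.374 to 0.592), 0.402 (0.337 to 0.479) and 0.407 (0.339 to 0.486), and the log2 ratios without the top 5 cells of each library were -1.0, -1.0 and -1.04. The related Cd9 was at 91.5, 108, 154 and 276 CPM, with ratios of 0.332, 0.391 and 0.560 and log2 ratios of -1.12, -0.72 and -0.49 without the top cells. Trem2, the lipid receptor on which the program depends in mice, was at 133, 79.3, 171 and 222 CPM, with ratios of 0.600 (0.441 to 0.806), 0.358 (0.274 to 0.464) and 0.772 (0.623 to 0.956). Without the top cells the log2 ratios of Trem2 were -0.72, -1.26 and -0.05, so its ruxolitinib value rested on the top cells. The vehicle library was the highest of the 4 for all of these.

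In other members few cells carried most of the vehicle UMIs. Without the top cells Spp1 was still past 1.5-fold lower under each drug, and Mmp12 under givinostat and ruxolitinib. Spp1, which encodes osteopontin, was at 207, 250, 562 and 1683 CPM in marker-free cells, but 5 vehicle cells carried 76.4% of the vehicle UMIs, and without the top 5 cells of each library the log2 ratios were -1.88, -1.15 and -0.74. In the whole gate, cells with markers of other classes included, Spp1 was at 2836, 3681, 3022 and 4653 CPM. Fabp5, a fatty acid carrier, was at 39.2, 104, 54.1 and 361 CPM, with 93.9% of the vehicle UMIs in 5 cells. Without the top 5 cells its log2 ratios were -0.28, -0.37 and 0.34. Gpnmb had 0 UMIs under each drug and 35 UMIs under vehicle, where 1 cell held 85.7% of them. Mmp12, macrophage elastase, was at 529, 442, 507 and 915 CPM, with the top 5 cells holding 71.9% of the vehicle UMIs and log2 ratios of -0.21, -0.85 and -0.89 without the top 5 cells of each library. Lpl, which encodes lipoprotein lipase, differed from this pattern, at 542, 477, 295 and 474 CPM, with ratios of 1.14 (0.972 to 1.35), 1.01 (0.881 to 1.15) and 0.622 (0.533 to 0.725).

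**Figure D5:**
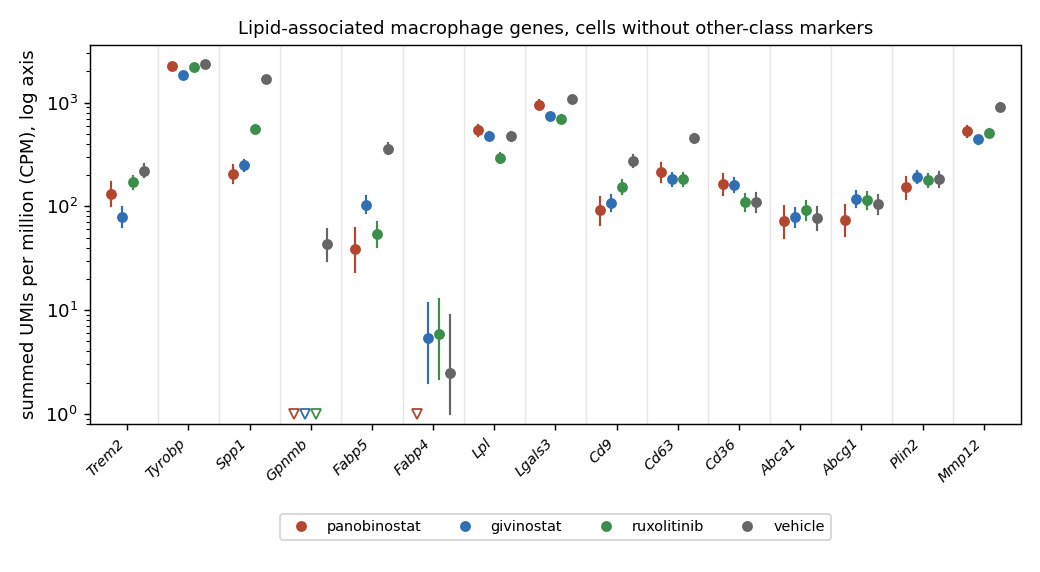
Levels of the 15 lipid-associated genes in marker-free C1q macrophages (CPM, log axis), 1 point per library with its 95% exact Poisson interval; open triangles at the base mark 0 UMIs. The vehicle point is the highest for Cd63 (452 CPM), Cd9 (276 CPM) and Trem2 (222 CPM), while Lpl and Plin2 show no such order.

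Pf4, Fn1 and Ctsl, from other lists, were also lower under each drug. Pf4, a platelet and macrophage chemokine, was at 135 CPM under panobinostat, 136 under givinostat, 147 under ruxolitinib and 351 under vehicle in marker-free cells, with ratios of 0.385 (0.288 to 0.508), 0.389 (0.317 to 0.475) and 0.420 (0.343 to 0.514). Fn1, which encodes the matrix protein fibronectin, was at 272, 333, 223 and 741 CPM, with ratios of 0.367 (0.301 to 0.446), 0.450 (0.394 to 0.513) and 0.301 (0.257 to 0.351). In Fn1, 5 panobinostat cells held 94.4% of that library's UMIs, and without the top 5 cells of each library the log2 ratios were -3.82, -1.30 and -1.87. Ctsl, a lysosomal protease, was at 113, 182, 164 and 303 CPM, with ratios of 0.374, 0.600 and 0.542. Ctsl and Ctsd were the members of the 15-gene lysosome list that were past 1.5-fold lower in marker-free cells, 1, 2 and 2 under panobinostat, givinostat and ruxolitinib, and 0 were higher. Without the top 5 cells of each library the log2 ratios of Ctsd were -0.21 under givinostat and -0.36 under ruxolitinib, no longer past 1.5-fold. Those of Ctsl were -1.16, -0.53 and -0.60 under panobinostat, givinostat and ruxolitinib, so its givinostat value fell short too.

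Plac8, a small cysteine-rich protein of monocytes, was the reverse. It was at 226 CPM under panobinostat, 321 under givinostat, 185 under ruxolitinib and 49.3 under vehicle in the whole gate, and at 296, 441, 228 and 52.9 CPM in marker-free cells. The marker-free ratios were 5.6 (3.94 to 8.08), 8.33 (6.10 to 11.7) and 4.31 (3.10 to 6.11). Most of it lay in few cells: 1 panobinostat cell carried 56.6% of that library's Plac8 UMIs, and without the top 5 cells of each library the log2 ratios were 0.94, 3.09 and 2.17. Marker-free cells with 2 or more Plac8 UMIs, a limit set after the values were seen, numbered 7 of 87 (8.05%), 18 of 121 (14.9%), 16 of 140 (11.4%) and 8 of 119 (6.72%). This limit is on UMIs that were not thinned, and those cells were deeper, with a median of 9393 UMIs over all libraries, against 5702 in cells with few Plac8 and few Mmp12 UMIs. In thinned cells of the whole gate 14.2%, 17.5%, 12.1% and 6.59% had a Plac8 UMI, beside 7.84%, 8.37%, 9.79% and 8.73% of proximal tubule cells. The vehicle share did not exceed the share in those cells outside the lineage. Classical monocytes had 3722 to 5089 CPM of Plac8.

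The list of 12 recruited monocyte genes, which includes Plac8 and Fn1, had 4 genes past 1.5-fold higher and 3 lower under panobinostat, 5 and 3 under givinostat, and 3 and 1 under ruxolitinib in marker-free cells. Ccr2 was at 1152, 893, 989 and 913 CPM there, and the lysozyme gene Lyz2 at 6531, 7060, 7865 and 10840 CPM. The list had no single direction. Itga4, the integrin alpha chain of VLA-4 and a gene outside the list, was at 135, 123, 138 and 80.0 CPM, with ratios of 1.69 (1.17 to 2.43), 1.54 (1.14 to 2.10) and 1.72 (1.27 to 2.34). Of 11 genes taken to mark resident macrophages and found in the matrix, 4, 4 and 3 were past 1.5-fold lower and 0 higher, Pf4 under each drug and Stab1 under panobinostat and givinostat.

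Of 10 chemokine genes in the matrix, 2, 1 and 1 were past 1.5-fold higher and 3, 2 and 3 lower under panobinostat, givinostat and ruxolitinib in marker-free cells. Ccl4 and Ccl3 stood highest under panobinostat in marker-free cells, Ccl4 at 6544 CPM under panobinostat, 4490 under givinostat, 3763 under ruxolitinib and 3698 under vehicle, and Ccl3 at 2202, 1912, 1722 and 1331 CPM. The panobinostat ratios were 1.77 (1.68 to 1.86) for Ccl4 and 1.65 (1.52 to 1.80) for Ccl3. Among whole-gate cells with 5272 or more UMIs, however, Ccl4 was lower under panobinostat, with a log2 ratio of -0.25. Ccl7 was at 50.1, 338, 234 and 255 CPM, a panobinostat ratio of 0.197 (0.122 to 0.303), and it too turned round in the deeper cells of the whole gate, with a log2 ratio of 0.33. Ccl6 was lowest under ruxolitinib, at 688, 634, 451 and 1086 CPM, a ruxolitinib ratio of 0.415 (0.370 to 0.466), and Ccl9 likewise at 588, 461, 335 and 725 CPM, a ruxolitinib ratio of 0.462 (0.403 to 0.529). Ccl12, a CCR2 ligand, was at 342, 597, 505 and 268 CPM, with ratios of 1.27 (1.03 to 1.57), 2.22 (1.91 to 2.60) and 1.88 (1.6 to 2.22). Without the top 5 cells of each library the log2 ratios of Ccl12 were -0.08, 1.23 and 0.89, so the direction under panobinostat turned. Ccl2, another CCR2 ligand, stayed within 1.5-fold at 812, 937, 1209 and 900 CPM.

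Chaperones and receptors were among the genes past 1.5-fold under panobinostat. The inducible chaperone Hspa1a was at 860 CPM under panobinostat, 521 under givinostat, 444 under ruxolitinib and 402 under vehicle in marker-free cells, a panobinostat ratio of 2.14 (1.84 to 2.48), and its paralog Hspa1b at 361, 262, 162 and 183 CPM, a ratio of 1.97 (1.57 to 2.48). These 2 genes are near-identical, so reads may be split between them, but both lay the same way. Of 11 heat shock chaperones, 3 were past 1.5-fold higher under panobinostat and 0 lower in marker-free cells, and 1 and 1 in the whole gate. Of 6 Fc receptor genes 2 were lower under panobinostat in marker-free cells, Fcgr3 and Fcrls, and 3 in the whole gate, and 0 were higher. Fcrls, an Fc receptor-like gene, had 18 UMIs under panobinostat, 90 under givinostat, 58 under ruxolitinib and 107 under vehicle in marker-free cells, a panobinostat ratio of 0.298 (0.170 to 0.493). Fcgr3, an activating receptor for IgG, was at 433, 526, 628 and 675 CPM, a panobinostat ratio of 0.642 (0.543 to 0.757), and the inhibitory Fcgr2b at 438, 578, 594 and 614 CPM, a ratio of 0.713 (0.602 to 0.841) that did not reach 1.5-fold. The signalling chain Fcer1g was at 2391, 2082, 2401 and 2501 CPM, within 1.5-fold. Clec4n, the fungal lectin receptor dectin-2, was at 67.5, 129, 141 and 191 CPM, a panobinostat ratio of 0.354 (0.232 to 0.523). Apoe was at 9172, 13959, 12487 and 16933 CPM in marker-free cells, a panobinostat ratio of 0.542 (0.523 to 0.561), and Stab1 at 61.0, 84.7, 128 and 134 CPM, a ratio of 0.454 (0.289 to 0.694). The collagen galactosyltransferase gene Colgalt1 was at 163, 130, 101 and 97.2 CPM, a panobinostat ratio of 1.68 (1.21 to 2.33).

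Givinostat cells were highest in Ms4a4c, a relative of Ms4a7, at 105 CPM under panobinostat, 233 under givinostat, 118 under ruxolitinib and 73.9 under vehicle, a givinostat ratio of 3.15 (2.37 to 4.24). Mmp13 was at 118, 256, 129 and 91.1 CPM, a givinostat ratio of 2.81 (2.17 to 3.68). Ruxolitinib cells were highest in Cd300a, an inhibitory lipid receptor, at 91.5, 112, 169 and 94.8 CPM, a ruxolitinib ratio of 1.78 (1.36 to 2.36), and in Lifr, the receptor for leukaemia inhibitory factor, at 131, 124, 148 and 87.4 CPM, a ratio of 1.70 (1.27 to 2.28). The chemokine receptor Cxcr4 was at 63.1, 152, 168 and 116 CPM, a panobinostat ratio of 0.546 (0.347 to 0.835) and a ruxolitinib ratio of 1.45 (1.12 to 1.89).

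Several genes that the naming rule picked out in the whole gate belonged to cells with markers of another class. Egf, a gene of the distal nephron, was at 177, 140, 181 and 485 CPM in the whole gate but at 2.18, 8.02, 8.84 and 18.5 CPM in marker-free cells. Fabp4, an endothelial and fat-cell gene, was at 40.6, 150, 50.6 and 12.3 CPM in the whole gate, and at 0, 5.35, 5.90 and 2.46 CPM in marker-free cells. Calb1, Klk1 and Krt18, all genes of tubule epithelium, were also lower there. Calb1 lay between 13.1 and 26.7 CPM in marker-free cells, and Krt18 had 0 to 2 UMIs per library. Klk1 was at 2709, 2922, 966 and 2458 CPM in the whole gate and still at 58.8, 80.2, 189 and 59.1 CPM in marker-free cells, a ruxolitinib ratio of 3.19 (2.32 to 4.48) there. These values are not taken as values of C1q macrophages.

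Of 15 immediate early genes, which include Fos and Jun and respond to tissue dissociation, 0, 0 and 1 were past 1.5-fold higher and 1, 1 and 0 lower under panobinostat, givinostat and ruxolitinib in marker-free cells, with medians of -0.09, 0.07 and -0.03. Fos itself was at 2443, 2144, 2704 and 2403 CPM in the whole gate. Of 7 genes known to be raised by HDAC inhibition in many cell types, 1, 1 and 1 were higher and 1, 0 and 0 lower in marker-free cells, with medians of 0.10, 0.10 and 0.16, and 0 were higher in the whole gate under any drug. The 11 histone deacetylase genes had 1, 1 and 0 higher and 1, 2 and 2 lower. Among 12 inflammatory cytokine and NF-kappaB feedback genes, 0, 2 and 1 were higher and 4, 1 and 2 lower; Il1b was at 717, 899, 780 and 762 CPM and Tnf at 90.1, 115, 82.6 and 85.0 CPM in the whole gate. The 9 other complement genes had 0, 2 and 0 higher and 1, 0 and 3 lower, the 8 iron and haem genes 0, 0 and 0 higher and 1, 1 and 0 lower, and the 11 growth factor and matrix enzyme genes 0, 2 and 0 higher and 3, 4 and 2 lower in marker-free cells. In the whole gate the growth factor and matrix enzyme list had 0 higher and 6 of 11 lower under panobinostat (median -0.68), and 2 higher and 4 lower under both givinostat and ruxolitinib. Of its genes, the metalloprotease inhibitor Timp2 was at 105 CPM under panobinostat and 171 CPM under vehicle in the whole gate and at 142 and 207 CPM in marker-free cells, and the growth factor Hbegf at 23.8 and 65.9 CPM in the whole gate and 4.36 and 7.39 CPM in marker-free cells.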

How the data were processed

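Cells of whole kidneys were sequenced from the 3′ end in droplets (10x), with a single library for each group. The authors deposited raw UMI counts per gene and cell, made with Cell Ranger 3.0.1 on mm10, per the submitters' processing notes. Counts were used as deposited: cells under 200 genes were left out, the gate was applied to raw counts, and counts were summed per library and scaled to CPM. No doublets were removed, since Scrublet marked only 0.0254% to 2.30% of cells per library and is taken as not having worked. Genes were measured at 50 CPM or more in 1 compared library unless stated; list counts in the text use all members found, without that filter, a choice made after the values were seen.

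Named genes are list members and, for each drug, the 8 genes highest and the 8 lowest by log2 ratio at 100 CPM or more, without mitochondrial, ribosomal, predicted, immunoglobulin, haemoglobin, sex-linked, gate, other-class marker and tubule-rich genes. A few further genes were named after their values were seen. Values of a few listed or rule-chosen genes are left out of the text. Gene symbols were matched to GENCODE (16519 of 16706). The cells, lists and tests were chosen with earlier results of these data known. Pseudocounts, filters, scaling and the C1q threshold were varied. Tools were Python 3.11.15, numpy 2.4.6, scipy 1.17.1, pandas 2.3.3, scanpy 1.11.5, R 4.3.3, edgeR 4.0.16 and DESeq2 1.42.0, the last 2 only for scaling factors. The ratios and intervals were tried on simulated counts drawn from the Poisson model that the intervals assume. That trial therefore could not test them against the clustering of a gene's UMIs in few cells.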

Additional observations from a re-analysis of the deposited data

How the results depend on the processing

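No paired analysis was possible because each group has 1 library. The main limit is that 1 library per group leaves the spread between animals unmeasured. The share of C1q macrophages kept its direction under 29 of 30 recalculations; as a share of Ptprc cells the givinostat ratio was 0.957. At 50 CPM or more, genes past 1.5-fold higher and lower numbered 91 and 130 of 3142 (panobinostat), 234 and 257 of 3266 (givinostat) and 124 and 133 of 3220 (ruxolitinib), in the whole gate. These counts moved by over 1.5 times in the following cases. With a pseudocount of 20 CPM they were 60 and 84 (panobinostat), 150 higher (givinostat) and 62 higher (ruxolitinib). Without a filter on low values they were 957 and 917, 1026 and 1004, and 732 and 760, and at 100 CPM or more 35 and 57, 94 and 129, and 43 and 73. In marker-free cells panobinostat had 152 higher, givinostat 117 lower and ruxolitinib 196 higher and 83 lower. In cells with 5272 or more UMIs panobinostat had 141 higher, givinostat 358 and 400, and ruxolitinib 209 higher. The stricter cell filter gave 203 lower under panobinostat, no limit on Slc34a1 gave 261 higher under panobinostat, and means over cells gave 90 lower under givinostat and 70 lower under ruxolitinib.

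Of the list medians under these alternatives, 914 stayed close to their value, 50 moved and 0 past 1.5-fold changed sign. Of the log2 ratios of named genes, 1925 stayed within the interval of their main value and 338 moved out of it. Log2 ratios of named genes changed sign in 20 cases, counted only where the main ratio was past 1.5-fold. The count covered the genes that the rule named for that drug and a further fixed set. Cxcl10 under ruxolitinib lay outside it and also turned, from higher in the whole gate to lower in marker-free cells. Mgp turned to -2.86, -1.08 and -2.06 under panobinostat (20 or more C1q UMIs, marker-free cells, no Slc34a1 limit), and to -2.62, -2.84, -0.62, -1.79 and -0.82 under ruxolitinib (stricter filter, without lymphocyte and neutrophil markers, marker-free, no Slc34a1 limit, without its top cell). In marker-free cells Sostdc1 turned to 0.90 (panobinostat) and 1.17 (givinostat), Aif1l to 0.18, Krt18 to 0.12, Plpp3 to -0.36 and Spink8 to 0.62 (givinostat), and Krt18 to 0.16, Clu to 1.59 and Klk1 to 1.6 (ruxolitinib). Mmp12 turned to 0.0056 under ruxolitinib without lymphocyte and neutrophil markers. In cells with 5272 or more UMIs Ccl4 turned to -0.25 and Ccl7 to 0.33 (panobinostat). The causes were not tested. The alternatives with marker-free cells, without the Slc34a1 limit, by UMI floor and without top cells were chosen after seeing the data.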

Other observations

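A small set of C1q macrophages carried much of the macrophage elastase gene Mmp12. Marker-free cells with 5 or more Mmp12 UMIs, a limit set after the values were seen, numbered 14 of 87 under panobinostat, 14 of 121 under givinostat, 17 of 140 under ruxolitinib and 18 of 119 under vehicle, or 16.1%, 11.6%, 12.1% and 15.1%. UMIs were not thinned for this limit or for that on Plac8 below, and the cells it took were deeper, with medians of 6404, 15130, 8104 and 9578 UMIs, against 4030, 7179, 5894 and 4924 in cells with neither many Mmp12 nor many Plac8 UMIs. Over all libraries these 63 cells had 1187 CPM of the lectin gene Mgl2, 394 CPM of the ribonuclease gene Ear2 and 1015 CPM of Fn1. The 355 cells with neither many Mmp12 nor many Plac8 UMIs had 607, 122 and 206 CPM. Apoe was at 5822 CPM in the 63 cells and at 16754 CPM in those 355. Mgl2 also served, with Cd209a, to gate the dendritic cells above. Whether the 63 cells are nearer to dendritic cells than to macrophages was not tested. The 49 cells with 2 or more Plac8 UMIs had 242 CPM of the monocyte gene Ly6c2, 1444 CPM of Ccr2 and 181 CPM of Ms4a7, against 4.81, 872 and 459 CPM in the cells with neither.

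Tpm3-rs7, a related sequence of the tropomyosin gene Tpm3, split the libraries in pairs: marker-free cells had 6 UMIs under panobinostat, 114 under givinostat, 142 under ruxolitinib and 7 under vehicle. Reads of Tpm3 can map to it, so the value is uncertain. The chemokine gene Ccl5 was at 211 CPM under panobinostat, 37.4 under givinostat, 51.1 under ruxolitinib and 7.39 under vehicle in marker-free cells. It had 97 UMIs under panobinostat and 6 under vehicle. Its spread over cells, and the part of lymphocyte RNA in it, were not tested.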
